A study of Mus musculus with 9 samples.

Results

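The genes described here are the chemokine ligands and their receptors, taken as the 59 protein-coding mouse genes whose symbol is that of a Ccl, Cxcl, Cx3cl or Xcl ligand, a Ccr, Cxcr, Cx3cr or Xcr receptor, or an atypical receptor of the Ackr series. They were 37 ligands and 22 receptors among 46517 gene identifiers, 21547 of them protein-coding. Transcripts were counted by bulk RNA sequencing in glioblastoma tissue of 3 mouse models, all on a mixed strain background, with 3 libraries of total RNA per model. Per the labels the models differ in the Cre recombinase line used. Synapsin-cre is named for a neuronal gene, Nestin-creERT2 for a gene of neural stem and progenitor cells, and NG2-creERTM for the proteoglycan NG2 of oligodendrocyte precursors and pericytes. The ERT2 and ERTM forms are Cre fusions that need tamoxifen to act. The labels used here give no tumour-driving alleles, ages or tumour sites. The study set the models side by side as stand-ins for different cells of origin. No source used here says whether the libraries of a model are from different animals, and the p-values therefore reflect only how far the libraries differed, which can be technical.

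Chemokines are small secreted proteins that steer migrating cells along gradients by binding receptors coupled to G proteins. The atypical receptors bind chemokines without that coupling and remove or transport them. In the brain, neurons make the membrane-anchored ligand Cx3cl1 and microglia carry its only receptor Cx3cr1, while Cxcl12 with Cxcr4 and Ackr3 guides progenitor and vascular cells, and tumour cells and infiltrating myeloid cells add inflammatory ligands such as Ccl2 and Cxcl10.

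The ligand families are named for the spacing of the first cysteines of the mature protein. The coding bases around that pair are shown for 6 of the ligands described below, to set the 3 spacings side by side, read from GENCODE vM21 transcripts, 5′ to 3′, with the 2 cysteine codons in capitals.
Cx3cl1: acgaaaTGCgaaatcatgTGCgacaag
Cxcl10: gtccgcTGCaacTGCatccat
Cxcl14: tccaagTGTaagTGTtcccgg
Cxcl12: taccgaTGCcccTGCcggttc
Ccl2: ctcaccTGCTGCtactca
Ccl5: actcccTGCTGCtttgcc
The codons are adjacent in the CC ligands, have 1 codon between them in the CXC ligands and 3 in Cx3cl1.

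The libraries held 23557398 to 41099967 counts in genes. Synapsin-cre replicate 1 stood apart from the other 8. Its summed level of 5 neuronal genes was 3629 CPM (reads of a gene per TMM-adjusted library size), against 29.9 to 529 elsewhere, and its summed level of 6 proliferation genes was 70.6 CPM, against 884 to 1928. Its 5 glioma and progenitor genes summed to 275 CPM, against 1242 to 3767 in the others. Results are therefore given with and without that library, and its part in each was not tested beyond leaving it out. In bulk tissue, fewer cells of a type and less RNA per cell cannot be told apart.

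Of the 59 chemokine genes, 34 passed the filter on low counts in the fit of all 9 libraries, 23 ligands and 11 receptors. Of the other 25, 5 had 0 counts in every library: Cxcl15, Ccl26, Ccl27b, Ccl1 and Ccl21b. A count of 0 allows up to 3 counts, which is 0.0714 to 0.133 CPM depending on the library, counting error only. The other 20 reached at most 20 counts and 0.884 CPM in any library. They include the homing axis of lymphoid tissue (Ccl19, Ccl21a, Ccr7 and Cxcr5), the lymphotactin pair Xcl1 and Xcr1, the receptors Cxcr1, Cxcr3, Cxcr6, Ccr3, Ccr4, Ccr8, Ccr9 and Ccr10, and the ligands Ccl17, Ccl20, Ccl24, Ccl28, Cxcl3 and Cxcl17. Genes that mark lymphocytes were also low: 9 T cell genes summed to 1.80 to 9.97 CPM, 5 NK cell genes to 0.0901 to 2.34 CPM and 5 B cell genes to 0.358 to 3.02 CPM. Ccl27a and Ccl27b, and the Ccl21 genes, have near-identical copies in the genome, so their counts are uncertain.

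Levels between genes were compared per kilobase of exon, with all annotated exons of a gene merged. Over the 9 libraries the ligands ranked Cxcl14 (mean 27.5 CPM per kb), Cx3cl1 (26.9), Cxcl10 (22.4), Ccl12 (10.8), Ccl2 (9.82), Ccl6 (8.27), Ccl5 (7.79), Cxcl16 (4.90), Ccl3 (3.87) and Ccl7 (3.66). The receptors were led by Cxcr4 (12.7 CPM per kb), Cx3cr1 (9.21), Ackr3 (7.04), Ackr1 (6.77) and Ccr1 (1.82), with Ackr2 at 0.594 and Ccr2 at 0.341. These are means over 9 libraries, and the order changed from library to library. Cxcl14, an epithelial and glial chemokine with no settled signalling receptor, was the most abundant ligand in 6 of 9 libraries, with 16.7 to 48.9% of the summed ligand CPM per kb in those 6. The exceptions were Cx3cl1 at 30.4% in Synapsin-cre replicate 1, Ccl6 at 17.9% in Nestin-creERT2 replicate 1 and Cxcl10 at 39.9% in Nestin-creERT2 replicate 2. Cxcr4 was the most abundant receptor in 6 of 9 libraries, Ackr1 led in Synapsin-cre replicate 1 (46.5%), Cx3cr1 in Nestin-creERT2 replicate 1 (23.9%) and Ackr3 in Nestin-creERT2 replicate 3 (47.9%). The 3 Nestin-creERT2 libraries thus had 3 different leading ligands.

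**Figure D1:**
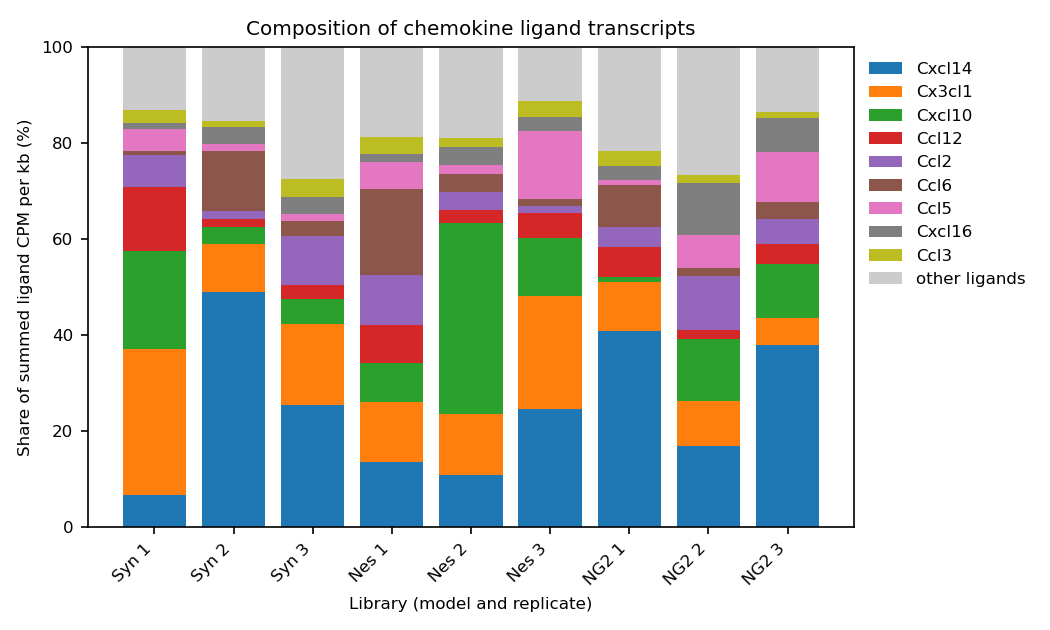
Share of the summed ligand CPM per kb (percent, vertical axis) taken by each of the 9 most abundant chemokine ligands and by all others, in each of the 9 libraries (horizontal axis, Syn for Synapsin-cre, Nes for Nestin-creERT2, NG2 for NG2-creERTM). Cxcl14 takes 48.9% in Synapsin-cre replicate 2 and 6.57% in Synapsin-cre replicate 1, where Cx3cl1 and Cxcl10 lead.

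The summed level of all ligands was 413 CPM per kb in Synapsin-cre replicate 1, 218 in Nestin-creERT2 replicate 1 and 75.7 to 135 in the other 7 libraries. Of the 34 tested chemokine genes, 17 had their highest level of all 9 libraries in Synapsin-cre replicate 1, against 25% of all genes tested. In 27 of the 34 the highest library was over 10 times the lowest, against 30.7% of all genes tested. These 2 counts describe the genes that passed the filter and are not a test. Among the 27 the lowest library held 0 counts for Ccl11, Cxcl13 and Ccr6 and 1 count for Ackr4, Ccl8 and Cxcl5. The share over all genes was not matched for level, so counting error can widen the contrast.

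**Figure D2:**
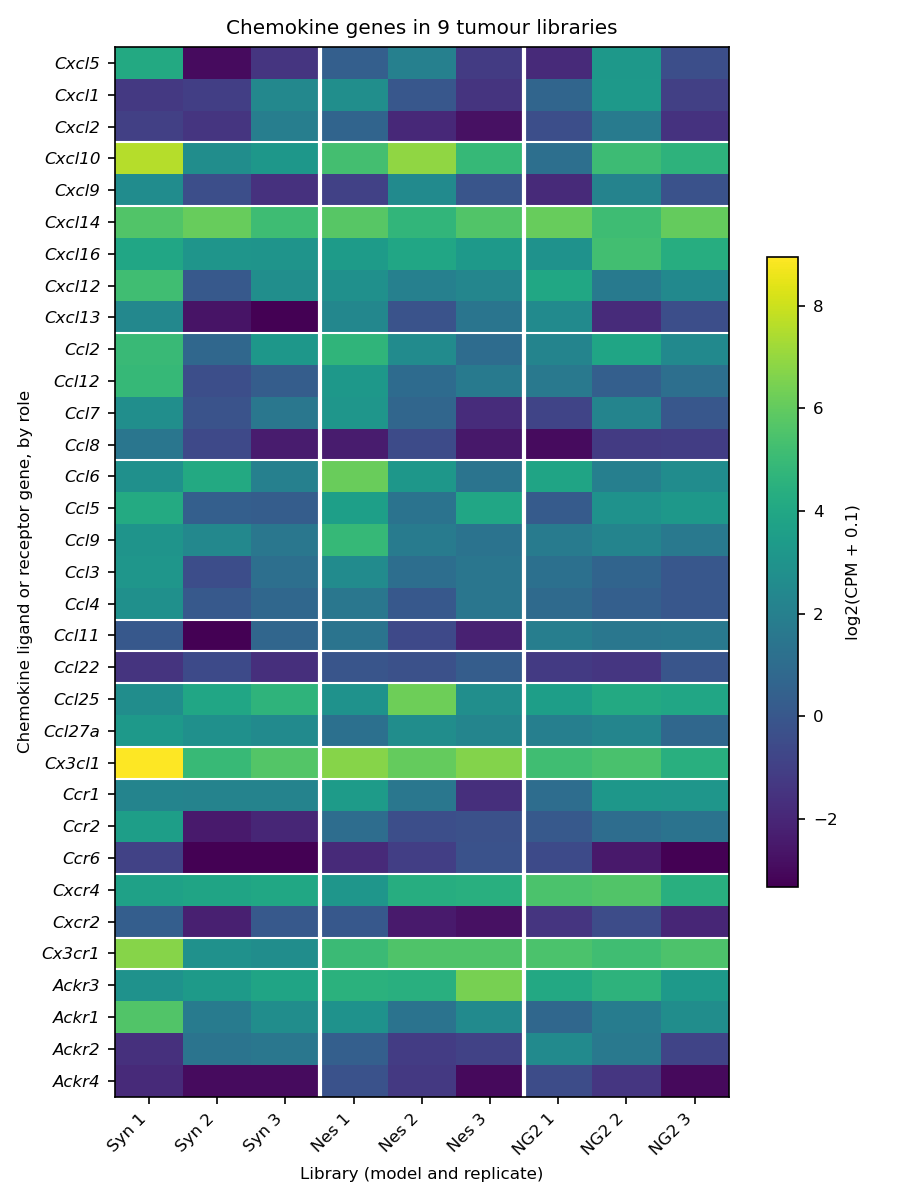
Level of 33 of the 34 tested chemokine genes (rows, grouped by role with white lines between roles) in the 9 libraries (columns, white lines between models), as log2(CPM + 0.1), from dark for low to yellow for high. The first column, Synapsin-cre replicate 1, holds the highest value of 16 of them, and Cxcl14 is high in all 9 columns.

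In the fit of all 9 libraries no chemokine gene differed between models after adjustment. With edgeR's quasi-likelihood test, 0 of 34 passed an adjusted p of 0.05 for NG2-creERTM versus Nestin-creERT2, for Synapsin-cre versus Nestin-creERT2, for Synapsin-cre versus NG2-creERTM or for any difference among the 3 models, and so did 0 of 17947 genes (0%). The lowest adjusted p of a chemokine gene in the pairwise comparisons was 0.347 with edgeR. DESeq2 and limma voom also called 0 chemokine genes in each pairwise comparison. With DESeq2 the lowest adjusted p of a chemokine gene was 0.138 for NG2-creERTM versus Nestin-creERT2. It was 0.0524 for Synapsin-cre versus Nestin-creERT2 and 0.0677 for Synapsin-cre versus NG2-creERTM. DESeq2 did call other genes, with the counts given in the last section. At an unadjusted p under 0.05, edgeR gave 1 of 34 for NG2-creERTM versus Nestin-creERT2 (Cxcr4, against 11.3% of all genes), 1 of 34 for Synapsin-cre versus Nestin-creERT2 (Ackr3, against 10.8%) and 3 of 34 for Synapsin-cre versus NG2-creERTM (Ackr1, Cx3cl1 and Cxcr4, against 12.8%). These shares were at or under those of all genes. The 3 values of one model lay wholly above or below those of the other for 3 chemokine genes between NG2-creERTM and Nestin-creERT2 (25.2% of all genes), for 2 between Synapsin-cre and Nestin-creERT2 (14.7%) and for 3 between Synapsin-cre and NG2-creERTM (13.8%).

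Without Synapsin-cre replicate 1, 1 chemokine gene fell. Cx3cr1 was lower in Synapsin-cre than in Nestin-creERT2 tumours, the 1 call among 37 tested chemokine genes, against 1.48% of 18481 genes. It was also the 1 call for any difference among the 3 models, against 1.87% of all genes. For Synapsin-cre versus NG2-creERTM 0 of 37 passed (0.00541% of all genes), and for NG2-creERTM versus Nestin-creERT2 0 of 37 (0.671% of all genes). At an unadjusted p under 0.05, 10 of 37 were lower in Synapsin-cre than in Nestin-creERT2 tumours (12.2% of all genes) and 9 of 37 lower than in NG2-creERTM tumours (6.72%). At the same threshold 0 of 37 were higher in Synapsin-cre in either comparison, against 9.33% and 5.3% of all genes. Between NG2-creERTM and Nestin-creERT2 the count was 4 of 37 in both directions (18.8%). The fitted fold change was negative for 27 of 37 against Nestin-creERT2 (49.5% of all genes), median -0.95 on the log2 scale beside 0.01 over all genes, and for 26 of 37 against NG2-creERTM (50.5%), median -0.48 beside -0.01. Both Synapsin-cre libraries lay below all 3 Nestin-creERT2 libraries for 13 of 37 (20.9%) and below all 3 NG2-creERTM libraries for 7 of 37 (12.9%). These comparisons share the same 2 Synapsin-cre libraries. With all 9 libraries the medians were 0.01 against Nestin-creERT2 (0.13 over all genes) and 0.20 against NG2-creERTM (0.08 over all genes).

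**Figure D3:**
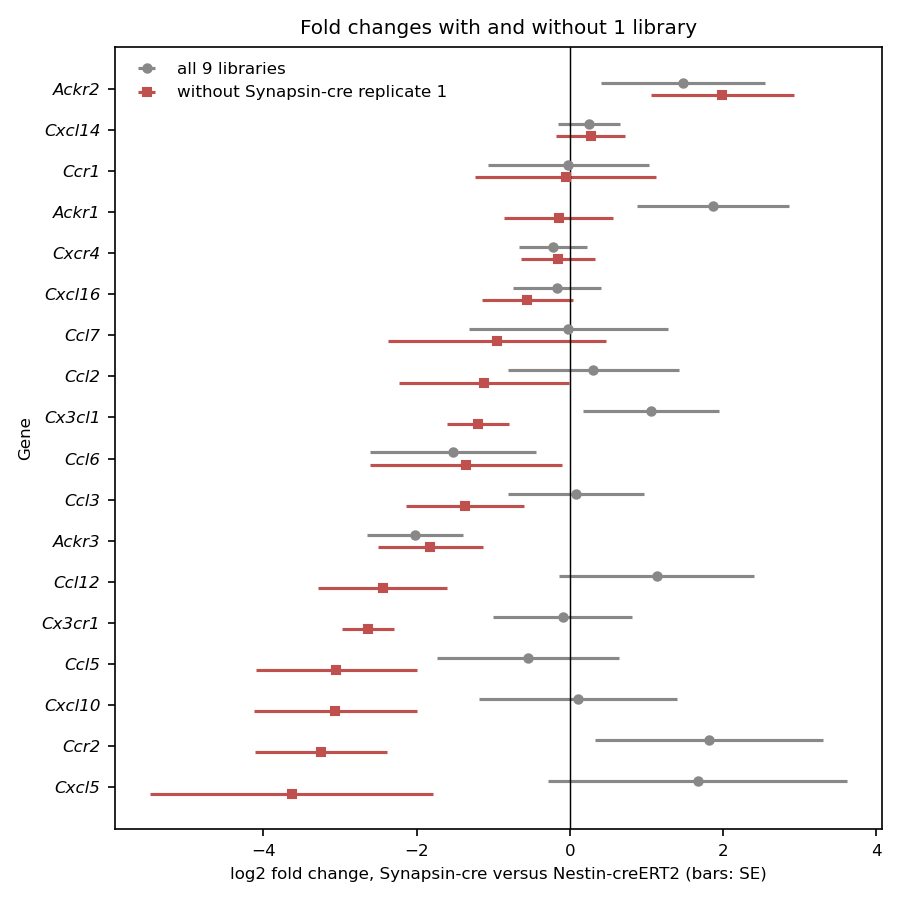
Fitted log2 fold change (horizontal axis, bars are standard errors) of Synapsin-cre versus Nestin-creERT2 for 18 named chemokine genes (rows), with all 9 libraries (grey circles) and without Synapsin-cre replicate 1 (red squares). Cx3cr1 moves from -0.09 to -2.63 and Ccr2 from 1.82 to -3.25, while Cxcl14, Cxcr4, Ccr1 and Ackr3 keep nearly the same place. Ccr6 and Cxcl13 are left out because a remaining Synapsin-cre library had 0 counts.

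Cx3cr1, the fractalkine receptor of microglia and some monocytes (GRCm38 chr9:119901616-120069879, minus strand), was the gene that gave the call. It measured 106, 7.39 and 6.40 CPM in Synapsin-cre replicates 1 to 3, 33.1, 46.7 and 48.0 CPM in Nestin-creERT2 and 43.7, 35.9 and 46.0 CPM in NG2-creERTM. Synapsin-cre replicates 2 and 3 were below all other libraries, replicate 1 was above them, and the 6 libraries of the other models lay within 33.1 to 48.0 CPM. The log2 fold change of Synapsin-cre versus Nestin-creERT2 was -0.09 ± 0.91 (SE; edgeR, adjusted p = 0.985) with all 9 libraries and -2.63 ± 0.33 (adjusted p = 0.0234) without replicate 1. Against NG2-creERTM it was -2.61 ± 0.33 without replicate 1 (edgeR, adjusted p = 0.158), and the difference between NG2-creERTM and Nestin-creERT2 was -0.03 ± 0.27 (adjusted p = 0.970). The call therefore rests on leaving out 1 library.

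Most markers of myeloid cells were low in Synapsin-cre replicates 2 and 3, as Cx3cr1 was. The summed level of 9 pan-leukocyte and myeloid genes was 651, 117 and 89.8 CPM in Synapsin-cre replicates 1 to 3, 316 to 418 in Nestin-creERT2 and 280 to 412 in NG2-creERTM. Without replicate 1, all 9 of those genes had negative fold changes against Nestin-creERT2 (median -1.76), and Tyrobp and Laptm5 fell with edgeR's adjusted p under 0.05. Of 9 microglial genes that do not include Cx3cr1, 7 were negative (median -2.29) and P2ry13, Tmem119 and Gpr34 were among those that fell. Sall1 and Olfml3 did not follow, with 319 and 139 CPM in Synapsin-cre replicate 2. Tmem119 was at 81.2 CPM in Synapsin-cre replicate 1 and at most 43.9 elsewhere, but Gpr34 was at 6.10 CPM there and up to 8.24 elsewhere. The 9 microglial genes summed to 783, 537 and 193 CPM in Synapsin-cre replicates 1 to 3. Their sums were 402 to 455 CPM in Nestin-creERT2 and 334 to 494 in NG2-creERTM, so replicate 2 was not low by this sum. The log2 level of Cx3cr1 minus the mean log2 level of those 9 genes was 0.77 to 1.21 in 7 libraries and 0.14 and 0.26 in Synapsin-cre replicates 2 and 3. Their part in the Cx3cr1 result was not tested.

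**Figure D4:**
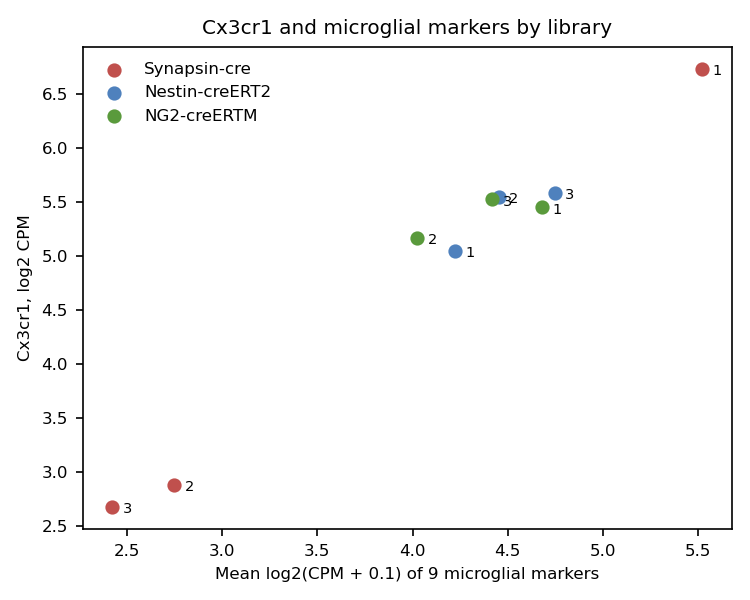
Level of Cx3cr1 (vertical axis, log2 CPM) against the mean log2(CPM + 0.1) of 9 microglial marker genes (horizontal axis) in each library, coloured by model, with the replicate number beside the point. Synapsin-cre replicates 2 and 3 lie at the lower left, Synapsin-cre replicate 1 at the upper right, and the other 6 libraries between them.

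Cx3cl1, the membrane-anchored ligand of Cx3cr1 (chr8:94772009-94782427, plus strand), measured 493, 30.3 and 50.5 CPM in Synapsin-cre, 107, 67.1 and 102 CPM in Nestin-creERT2 and 36.7, 43.1 and 21.05 CPM in NG2-creERTM. The Nestin-creERT2 and NG2-creERTM values did not overlap, and Synapsin-cre spanned both. For NG2-creERTM versus Nestin-creERT2 the log2 fold change was -1.45 ± 0.89 (edgeR, adjusted p = 0.580) with all 9 libraries and -1.46 ± 0.35 (adjusted p = 0.0785) without Synapsin-cre replicate 1. For Synapsin-cre versus NG2-creERTM it was 2.51 ± 0.92 (edgeR, adjusted p = 0.357) and 0.26 ± 0.39 (adjusted p = 0.832) without replicate 1. The 5 neuronal genes summed to 446 to 529 CPM in Nestin-creERT2, 39.7, 29.9 and 123 in NG2-creERTM and 3629, 82.6 and 44.4 in Synapsin-cre. They were high where Cx3cl1 was high in Synapsin-cre replicate 1 and in Nestin-creERT2 against NG2-creERTM, but ran in the opposite order among the 3 NG2-creERTM libraries and between Synapsin-cre replicates 2 and 3. The log2 level of Cx3cl1 minus the mean log2 level of those genes ran from 0.03 to 3.54, and their part in the Cx3cl1 values was not tested. Per kilobase, the ratio of Cx3cl1 to Cx3cr1 ran from 0.524 to 9.05 over the libraries, with a median of 2.43.

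Cxcr4, the signalling receptor for Cxcl12 (chr1:128588199-128592293, minus strand), was higher in NG2-creERTM without passing the test. It measured 44.5, 48.8 and 21.5 CPM in NG2-creERTM (mean 38.2 ± 14.7, SD, n = 3), 8.57, 20.1 and 21.1 CPM in Nestin-creERT2 (mean 16.6 ± 6.97) and 13.04, 14.3 and 15.6 CPM in Synapsin-cre (mean 14.3 ± 1.30). The lowest NG2-creERTM value was 21.5 and the highest Nestin-creERT2 value 21.1, so the 2 models did not overlap but nearly touched. The log2 fold change was 1.20 ± 0.45 for NG2-creERTM versus Nestin-creERT2 (edgeR, adjusted p = 0.393) and -1.42 ± 0.45 for Synapsin-cre versus NG2-creERTM (adjusted p = 0.357). Without Synapsin-cre replicate 1 they were 1.20 ± 0.43 (edgeR, adjusted p = 0.177) and -1.35 ± 0.50 (adjusted p = 0.358). Leaving that library out moved neither value by more than its SE.

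Vascular markers were higher in NG2-creERTM than in most Nestin-creERT2 libraries, as Cxcr4 was, but did not follow it elsewhere. The 9 endothelial genes summed to 241 to 438 CPM in NG2-creERTM, 132 to 245 in Nestin-creERT2 and 247 to 443 in Synapsin-cre, and 7 pericyte and smooth muscle genes to 149 to 426, 71.3 to 129 and 127 to 216 CPM. In NG2-creERTM replicate 3, which has the lowest Cxcr4 of its model, both sums were also the lowest of the model. In Nestin-creERT2 replicate 1, which has the lowest Cxcr4 of all 9 libraries, both sums were the highest of the model, at 245 and 129 CPM. The endothelial sums of Synapsin-cre overlapped those of NG2-creERTM, with Cxcr4 at 13.04 to 15.6 CPM. The log2 level of Cxcr4 minus the mean log2 level of the endothelial genes ran from -1.36 to 0.91 over the libraries. Their part in the Cxcr4 values was not tested.

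Cxcl12, the ligand of Cxcr4 and Ackr3, measured 35.7, 0.965 and 6.67 CPM in Synapsin-cre, 7.10, 4.02 and 4.86 CPM in Nestin-creERT2 and 15.7, 3.19 and 5.53 CPM in NG2-creERTM. Per kilobase it was lower than its receptor in every library: the ratio of Cxcl12 to Cxcr4 ran from 0.0145 to 0.606, with a median of 0.0569. This rests on merged exon lengths of 8176 bases for Cxcl12 and 1808 for Cxcr4. In CPM, Cxcl12 was above Cxcr4 in Synapsin-cre replicate 1, at 35.7 against 13.04 CPM. The models overlapped throughout for Cxcl12.

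Ackr3, the atypical receptor that takes up Cxcl12 (chr1:90203980-90216751, plus strand), had its highest mean in Nestin-creERT2. It measured 22.6, 21.3 and 85.3 CPM there, 7.51, 10.1 and 14.4 CPM in Synapsin-cre and 17.0, 24.5 and 9.50 CPM in NG2-creERTM. All 3 Synapsin-cre values lay below all 3 Nestin-creERT2 values, and 1 Nestin-creERT2 library, replicate 3, was far above its group. NG2-creERTM and Nestin-creERT2 overlapped, with NG2-creERTM replicate 2 above Nestin-creERT2 replicates 1 and 2. The log2 fold change of Synapsin-cre versus Nestin-creERT2 was -2.01 ± 0.63 (edgeR, adjusted p = 0.347), and -1.82 ± 0.69 without Synapsin-cre replicate 1 (adjusted p = 0.174). Without Nestin-creERT2 replicate 3 it was -1.05 ± 0.51 (edgeR, adjusted p = 0.596). The ratio of Cxcr4 to Ackr3 per kilobase was 3.68 to 4.85 in the 3 NG2-creERTM libraries, 2.01 to 3.21 in Synapsin-cre and 0.458 to 1.75 in Nestin-creERT2. The 3 models did not overlap in this ratio, which was computed after both genes had been singled out and was not tested.

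**Figure D5:**
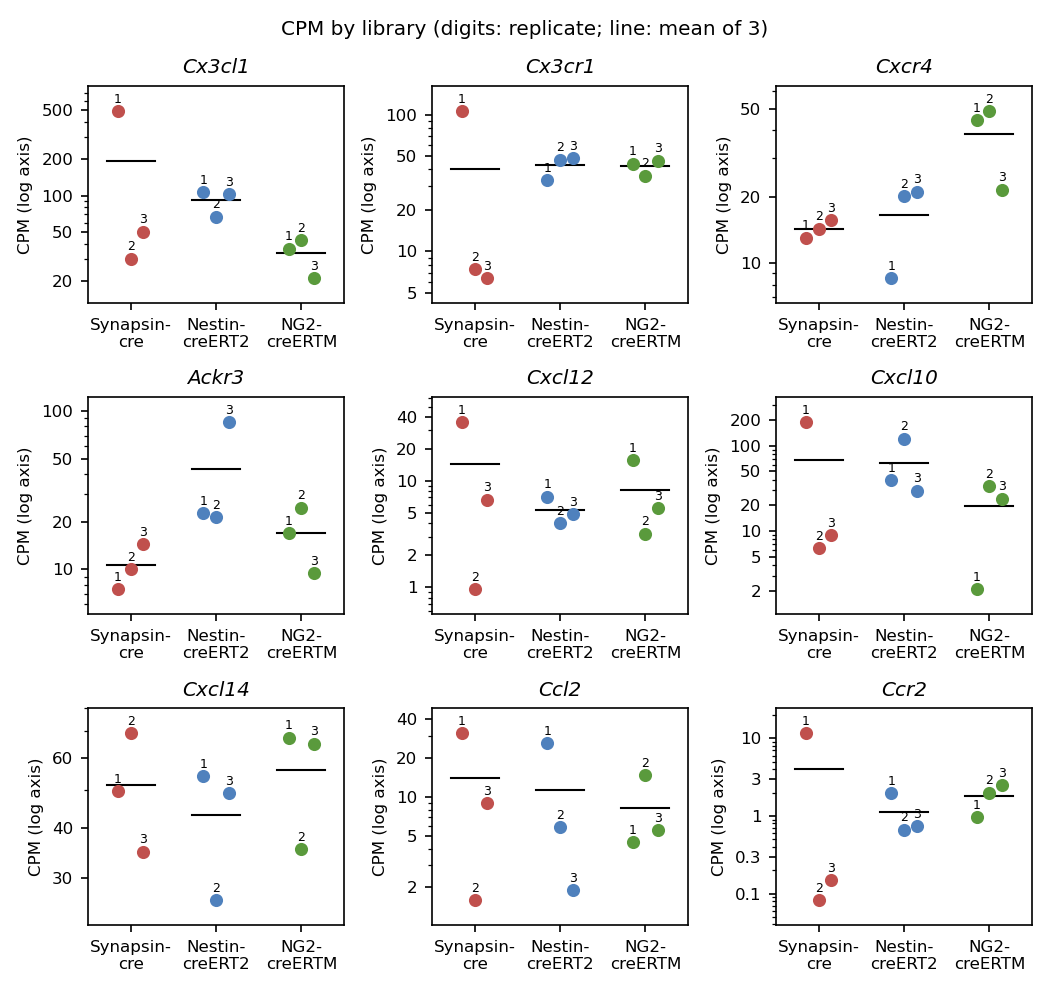
CPM (vertical axes, logarithmic, each panel with its own range) of 9 chemokine genes in the 3 models, with 1 point per library, the replicate number above each point and a line at the mean of the 3 libraries. Synapsin-cre replicate 1 is highest for Cx3cl1, Cx3cr1, Cxcl12, Cxcl10, Ccl2 and Ccr2, and the 3 NG2-creERTM libraries lie above the others for Cxcr4.

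Ackr1, the chemokine-scavenging receptor of venous endothelium and red cells, measured 48.6, 3.31 and 6.34 CPM in Synapsin-cre, 7.57, 2.49 and 5.83 CPM in Nestin-creERT2 and 1.59, 3.50 and 6.35 CPM in NG2-creERTM. Only Synapsin-cre replicate 1 stood out. The log2 fold change of Synapsin-cre versus NG2-creERTM was 2.35 ± 1.01 (edgeR, adjusted p = 0.382) and 0.33 ± 0.70 (adjusted p = 0.891) without that library. Its exons share 361 bases with the neuronal adhesion gene Cadm3 on the same strand, which was at 397 CPM in that library and 25.5 to 107 elsewhere, so the level of Ackr1 is uncertain. Ackr2, which degrades inflammatory CC chemokines, measured 0.221, 2.54 and 2.79 CPM in Synapsin-cre, 1.20, 0.360 and 0.429 CPM in Nestin-creERT2 and 5.66, 3.03 and 0.471 CPM in NG2-creERTM, and the models overlapped. Ackr4, which clears the lymphoid ligands, stayed at or under 0.763 CPM.

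The Cxcr3 ligands Cxcl9 and Cxcl10 are induced by interferon and draw activated lymphocytes. Cxcl10 (chr5:92346638-92348889, minus strand) measured 189, 6.34 and 9.01 CPM in Synapsin-cre, 39.3, 121 and 29.7 CPM in Nestin-creERT2 and 2.10, 33.6 and 23.9 CPM in NG2-creERTM, a spread of 2.10 to 189 CPM. Only without Synapsin-cre replicate 1 did Synapsin-cre lie wholly below Nestin-creERT2. The log2 fold change of that comparison was 0.11 ± 1.30 (edgeR, adjusted p = 0.988) with all 9 libraries and -3.06 ± 1.07 (adjusted p = 0.150) without it. Cxcl9 ran from 0.180 to 6.10 CPM and was highest in Synapsin-cre replicate 1, Nestin-creERT2 replicate 2 and NG2-creERTM replicate 2, the libraries that also had the highest Cxcl10 of their model. Per kilobase Cxcl10 exceeded Cxcl9 by 10.4 to 128 times. Cxcl11 is a polymorphic pseudogene in the annotation used and lies outside the 59. The interferon-response gene Irf7, named after its values were seen, was at 258 CPM in Synapsin-cre replicate 1, against 6.98 to 67.3 CPM in the others. Irf1, of the same group, was at 41.9 CPM there and at 13.6 to 49.2 CPM in the others, and their part in the Cxcl10 values was not tested. The receptor Cxcr3 was among the genes not tested, with at most 7 counts in a library.

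The neutrophil-attracting ligands Cxcl1 and Cxcl2, neighbours on chromosome 5, were high in the same 3 libraries, 1 of each model. Cxcl1 measured 0.309, 0.386 and 5.23 CPM in Synapsin-cre, 6.49, 0.914 and 0.262 CPM in Nestin-creERT2 and 1.53, 9.44 and 0.397 CPM in NG2-creERTM. Cxcl2 measured 0.398, 0.276 and 3.76 CPM in Synapsin-cre, 1.44, 0.166 and 0.0476 CPM in Nestin-creERT2 and 0.659, 3.37 and 0.248 CPM in NG2-creERTM. Synapsin-cre replicate 3, Nestin-creERT2 replicate 1 and NG2-creERTM replicate 2 were the highest of their model for both genes, so the models overlapped. Cxcl5, the third of the group, was at 17.4 CPM in Synapsin-cre replicate 1, at 9.20 in NG2-creERTM replicate 2 and at 0.0276 to 3.99 in the others. Its receptor Cxcr2 ran from 0.0476 to 1.15 CPM. The inflammatory cytokine gene Il1b, named after its values were seen, was at 5.65, 1.76 and 4.60 CPM in the 3 libraries with high Cxcl1, and at 3.93 CPM in Synapsin-cre replicate 1, where Cxcl1 was low. Of 8 neutrophil genes, S100a8, S100a9 and Retnlg were also highest of their model in those 3 libraries. S100a9 was at 5.83, 2.06 and 2.01 CPM in them and at 0.0952 to 2.21 CPM in the others. Camp had the same order at no more than 0.0587 CPM. Csf3r, Mmp8 and Ngp did not follow in every model. Within their model, Csf3r was highest in Synapsin-cre replicate 1 (27.3 CPM) and Nestin-creERT2 replicate 3 (18.6 CPM), and Mmp8 in Synapsin-cre replicate 1 (0.707 CPM). Ngp was at 0 CPM in Nestin-creERT2 replicate 1. All 8 genes summed to 15.7, 14.4 and 14.3 CPM in the 3 libraries and to 2.87 to 31.2 CPM in the others, with Csf3r the largest part in most, and the defining marker Ly6g had 0 counts in 8 of 9 libraries. The part of these genes in the Cxcl1 and Cxcl2 values was not tested.

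The upstream sequences of Cxcl1 and Cxcl2 are shown because the genes were high in the same libraries, and that of Cxcl10 because its highest library was furthest above its lowest among the 10 most abundant ligands. They are RefSeq windows of GRCm38.p6, 5′ to 3′ toward the gene's start, at chr5:90891135-90891244 on the plus strand for Cxcl1, chr5:90903789-90903898 on the plus strand for Cxcl2 and chr5:92348890-92349109 on the minus strand for Cxcl10. Capitals mark matches to the kappaB consensus, the binding motif of NF-kappaB, and in Cxcl10 also the first match, to the core of the interferon-stimulated response element (GAAA, 2 bases of any kind, then GAAA).
Cxcl1: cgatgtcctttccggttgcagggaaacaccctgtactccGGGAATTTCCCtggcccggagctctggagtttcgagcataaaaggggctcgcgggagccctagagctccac
Cxcl2: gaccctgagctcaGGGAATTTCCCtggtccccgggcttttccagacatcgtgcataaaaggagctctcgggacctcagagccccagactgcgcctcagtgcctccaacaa
Cxcl10: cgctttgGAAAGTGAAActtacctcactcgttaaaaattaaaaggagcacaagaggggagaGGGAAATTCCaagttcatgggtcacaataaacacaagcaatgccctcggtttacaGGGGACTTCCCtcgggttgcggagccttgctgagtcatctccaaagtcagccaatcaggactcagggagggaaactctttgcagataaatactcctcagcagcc
Cxcl1 and Cxcl2 carry the same 11 letters, which hold 2 overlapping matches. The search covered the 250 bases before the start, on both strands. The kappaB consensus occurred in 7.25% of 32851 windows and in 11 of the 45 chemokine genes with a window. The interferon core occurred in 2.98% of windows and in 3 of those 45, Ccl19, Cxcl10 and Cxcl14. The percentages count windows, while a chemokine gene was counted for a match in any of its windows. The shares are therefore not like for like. A match is a string of letters and does not show binding.

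Among the other CXC ligands, Cxcl14 varied least between libraries, from 26.5 to 69.3 CPM. It measured 49.6, 69.3 and 35.0 CPM in Synapsin-cre, 54.0, 26.5 and 48.9 CPM in Nestin-creERT2 and 67.5, 35.5 and 65.2 CPM in NG2-creERTM, and all models overlapped. Its log2 fold changes lay between -0.13 and 0.38, each with an SE of 0.40. Cxcl16, a membrane-bound ligand of Cxcr6, measured 15.4, 8.32 and 8.02 CPM in Synapsin-cre, 10.7, 15.3 and 9.76 CPM in Nestin-creERT2 and 7.49, 38.0 and 20.2 CPM in NG2-creERTM. Its exons share 552 bases with Zmynd15 on the opposite strand, and the unstranded counts held 74.9% of its strand-specific count. Cxcl13, the B cell attractant, measured 5.13, 0.0551 and 0 CPM in Synapsin-cre, 4.99, 0.775 and 2.59 CPM in Nestin-creERT2 and 5.78, 0.183 and 0.669 CPM in NG2-creERTM. Synapsin-cre replicates 2 and 3 were the lowest 2 of the 9 libraries for it, with 2 and 0 counts.

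The monocyte attractants Ccl2, Ccl7 and Ccl12 are ligands of Ccr2 and lie near Ccl8 on chromosome 11. Ccl2 measured 31.4, 1.60 and 8.95 CPM in Synapsin-cre, 26.1, 5.87 and 1.90 CPM in Nestin-creERT2 and 4.46, 14.8 and 5.58 CPM in NG2-creERTM. Ccl12 measured 29.7, 0.662 and 1.11 CPM in Synapsin-cre, 9.37, 1.88 and 3.09 CPM in Nestin-creERT2 and 3.03, 1.23 and 2.13 CPM in NG2-creERTM. Ccl7 ran from 0.190 to 8.51 CPM and Ccl8 from 0.0300 to 2.74 CPM. Ccl2, Ccl7 and Ccl12 were each highest, within their model, in Synapsin-cre replicate 1 and Nestin-creERT2 replicate 1. In NG2-creERTM Ccl2 and Ccl7 were highest in replicate 2, the library with high Cxcl1, and Ccl12 in replicate 1. Ccl12 turned direction when Synapsin-cre replicate 1 was left out: its log2 fold change against Nestin-creERT2 went from 1.13 ± 1.27 (edgeR, adjusted p = 0.791) to -2.44 ± 0.84 (adjusted p = 0.146).

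Ccr2 is the receptor of inflammatory monocytes for Ccl2, Ccl7 and Ccl12. It measured 11.7, 0.0827 and 0.150 CPM in Synapsin-cre, 1.97, 0.665 and 0.738 CPM in Nestin-creERT2 and 0.959, 1.99 and 2.48 CPM in NG2-creERTM. Synapsin-cre replicates 2 and 3, with 3 and 5 counts, were below every other library. Without replicate 1 the log2 fold change was -3.25 ± 0.86 against Nestin-creERT2 (edgeR, adjusted p = 0.0842) and -3.93 ± 0.89 against NG2-creERTM (adjusted p = 0.243). With all 9 libraries it was 1.82 ± 1.50 (edgeR, adjusted p = 0.699) and 1.13 ± 1.46 (adjusted p = 0.785). The 9 monocyte and macrophage genes summed to 173, 156 and 70.3 CPM in Synapsin-cre replicates 1 to 3, 67.1 to 284 in Nestin-creERT2 and 113 to 405 in NG2-creERTM. They did not move as one. Ly6c2, Plac8, Chil3 and Cd163 were highest of all libraries in Synapsin-cre replicate 1, Ly6c2 at 22.4 CPM against at most 1.06 elsewhere, while Lyz2 was at 62.6 CPM there and up to 316 elsewhere and Itga4 at 12.5 CPM and up to 94.3. Without replicate 1, 7 of the 9 had negative fold changes against Nestin-creERT2 (median -0.92) and 0 passed the adjusted p of 0.05 with edgeR, and their part in the Ccr2 values was not tested. Synapsin-cre replicates 2 and 3 both lay below the other 7 libraries for 5 of 34 tested chemokine genes, Ccr2, Cx3cr1, Ccl12 and Cxcl13 among them, against 6.22% of all genes tested.

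The ligands Ccl3, Ccl4, Ccl5, Ccl6 and Ccl9 overlapped between models with all 9 libraries. Ccl5, made by T cells and activated myeloid cells, measured 17.7, 1.21 and 1.14 CPM in Synapsin-cre, 11.9, 2.41 and 14.998 CPM in Nestin-creERT2 and 1.05, 7.58 and 9.35 CPM in NG2-creERTM. Ccl6, a myeloid ligand of Ccr1, measured 7.03, 17.2 and 4.03 CPM in Synapsin-cre, 69.8, 8.89 and 2.57 CPM in Nestin-creERT2 and 14.0, 3.79 and 6.20 CPM in NG2-creERTM. Its neighbour Ccl9 was also highest in Nestin-creERT2 replicate 1, at 29.9 CPM, and at 2.43 to 8.09 CPM elsewhere. Ccl3 ran from 0.634 to 8.57 CPM and Ccl4 from 0.917 to 7.16 CPM, at a ratio per kilobase of 0.566 to 1.90. Without Synapsin-cre replicate 1 the log2 fold change of Ccl5 was -3.05 ± 1.05 against Nestin-creERT2 (edgeR, adjusted p = 0.145) and -2.34 ± 1.02 against NG2-creERTM (adjusted p = 0.405).

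Ccr1, a receptor of myeloid cells, measured 4.60, 4.36 and 4.45 CPM in Synapsin-cre, 10.6, 2.77 and 0.214 CPM in Nestin-creERT2 and 1.98, 8.89 and 8.65 CPM in NG2-creERTM. Unlike those of Ccr2, its 3 Synapsin-cre values were nearly equal, replicate 1 included, and it spread most in Nestin-creERT2. Its log2 fold change of Synapsin-cre versus Nestin-creERT2 was -0.02 ± 1.06 (edgeR, adjusted p = 0.997). Ccr6, the receptor for Ccl20, reached 0.762 CPM at most and had 0 counts in Synapsin-cre replicates 2 and 3 and in NG2-creERTM replicate 3.

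Ccl11, the eosinophil attractant, measured 3.71, 2.82 and 2.98 CPM in NG2-creERTM, 0.928, 0 and 1.56 CPM in Synapsin-cre and 2.52, 0.554 and 0.119 CPM in Nestin-creERT2. The 3 NG2-creERTM values were above the 6 others, with log2 fold changes of 1.57 ± 1.36 against Nestin-creERT2 (edgeR, adjusted p = 0.712). The 5 fibroblast genes summed to 98.8 to 804 CPM in NG2-creERTM, 119 to 142 in Synapsin-cre and 11.7 to 42.1 in Nestin-creERT2, and their part in the Ccl11 values was not tested. Ccl25, the attractant of thymocytes and gut lymphocytes, was at 74.7 CPM in Nestin-creERT2 replicate 2 and at 6.36 to 25.5 CPM elsewhere, and it shares 204 exon bases with Elavl1 on the opposite strand. Ccl27a ran from 1.64 to 9.72 CPM, and Ccl22, a ligand of Ccr4, from 0.210 to 1.12 CPM.

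Genes around the chemokine system gave no call. Of 25 genes of receptor signal transduction, among them G protein subunits, receptor kinases and arrestins, 0 passed in either direction in any of the 3 comparisons with edgeR, with or without Synapsin-cre replicate 1. Without that library, 17 of 25 had negative fold changes for Synapsin-cre versus Nestin-creERT2 (49.5% of all genes), median -0.37 beside 0.01 over all genes. At an unadjusted p under 0.05, edgeR gave 7 of 25 lower (12.2% of all genes) and 0 higher (9.33%). For Synapsin-cre versus NG2-creERTM it gave 4 of 25 lower (6.72%) and 1 higher (5.3%). The receptor kinase gene Grk3 was nearest in NG2-creERTM versus Nestin-creERT2, at -1.34 ± 0.35 (edgeR, adjusted p = 0.304), and was chosen after its value was seen. Of 16 regulators of chemokine transcription 13 were tested and 0 passed in either direction in any comparison, with or without Synapsin-cre replicate 1. The list holds inducers and also Nfkbia and Tnfaip3, which restrain NF-kappaB. For Synapsin-cre versus Nestin-creERT2, 11 of 13 had positive fold changes with all 9 libraries (57.8% of all genes), with a median of 0.63 beside 0.13 over all genes, and 8 of 13 without that replicate (50.5% of all genes), with a median of 0.56 beside 0.01. Of 4 family genes with other symbols (Pf4, Ppbp, Ccrl2 and Gpr182) 3 were tested and 0 passed. Between NG2-creERTM and Nestin-creERT2 the chemokine genes had 22 of 34 fold changes below 0 (49.1% of all genes) and a median of -0.36 beside 0.02 over all genes, again with no gene passing.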

How the data were processed

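Total RNA of 9 glioblastoma samples was sequenced, and the authors deposited counts of reads per gene, 1 table per library, with an unstranded column and 1 column per strand. STAR, HTSeq and mm10 are named per the submitters' processing notes, without versions. The annotation release behind the counts is not given in the sources used here. The strand that held nearly all reads was used (the other held 3.25 to 3.64%), and 4 summary lines per file were left out. Those lines held 17.9 to 27.3% of reads, which were not counted for any gene. Multimapping reads, at 4.97 to 9.49%, are among them. Symbols, gene types and exon lengths came from GENCODE vM21, which matched 46005 of 46517 identifiers.

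Genes were filtered with filterByExpr, scaled with TMM factors and tested 2-sided in edgeR 4.0.16 (R 4.3.3) by quasi-likelihood over 3 models in all 9 libraries, with Benjamini-Hochberg adjustment over 17947 genes. SE is the log2 fold change divided by the root of its F statistic. Per-library values were given for most chemokine genes with an unadjusted p under 0.05 in a comparison, or among the 10 ligands and 8 receptors with the highest mean CPM per kb. Ccl3, Ccl7, Ccr6 and Cxcl5 met this rule but are given by ranges or in part. Some others are named to account for their group, and of these Cxcl1, Cxcl2 and Ccl11 are given for every library. Some genes that met the rule are not reported here. The members, lists and the fit without Synapsin-cre replicate 1 were chosen with earlier results of these data known. Alternatives were relative log expression factors, no filter, 1 CPM in 3 libraries, DESeq2 1.42.0, limma 3.58.1 voom, unstranded counts, 2 models only and each library left out. On simulated data with 17947 genes for NG2-creERTM versus Nestin-creERT2, edgeR recovered 16% of 4-fold and 74% of 16-fold changes with 1 false call. The changes were planted only in genes with a mean above 1 CPM, so these shares do not cover the less abundant chemokine genes. Depth of 23557398 to 41099967 counts limits precision to counting error of 3 counts, or 0.0714 to 0.133 CPM, at the floor. Python 3.11.15, pandas 2.3.3, numpy 2.4.6 and matplotlib 3.10.9 were used.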

Additional observations from a re-analysis of the deposited data

How the results depend on the processing

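The number of chemokine genes called was 0 in every pairwise comparison under relative log expression factors, no filter, the 1 CPM filter, DESeq2, limma voom, unstranded counts and fits of 2 models. Leaving out 1 library each gave 0 to 1 for Synapsin-cre versus Nestin-creERT2 and 0 to 1 for any difference, and the 1 was Cx3cr1 without Synapsin-cre replicate 1. Over all genes, NG2-creERTM versus Nestin-creERT2 gave 0 calls with all libraries, 12 without a filter, 621 with DESeq2, 237 with 2 models and 0 to 124 with 1 library left out (124 without Synapsin-cre replicate 1, 2 without NG2-creERTM replicate 2). Synapsin-cre versus Nestin-creERT2 gave 0, then 12 without a filter, 506 with DESeq2, 1 with unstranded counts, 5 with 2 models and 0 to 273 (273 without Synapsin-cre replicate 1). Synapsin-cre versus NG2-creERTM gave 0, 438 with DESeq2 and 0 to 1 with 1 library left out. The cause was not tested.

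Of 365 recomputed values for 23 single-gene fold changes, 338 kept direction and side of the threshold, 1 passed it (Cx3cr1) and 26 changed sign. For Synapsin-cre versus Nestin-creERT2, limma voom gave log2 -0.55 for Ccl12, -0.99 for Ccr2, -0.0041 for Cx3cl1 and -1.47 for Cxcl10. For Synapsin-cre versus NG2-creERTM it gave -0.66 for Ccl5, -1.77 for Ccr2 and -1.11 for Cxcl5. Cxcl10 against Nestin-creERT2 was -0.081 without a filter. With 1 library left out, fold changes against Nestin-creERT2 ran from -2.44 to 1.99 for Ccl12, -3.25 to 2.41 for Ccr2, -1.19 to 1.48 for Cx3cl1, -2.63 to 0.32 for Cx3cr1 and -3.06 to 0.97 for Cxcl10. Against NG2-creERTM they ran from -2.34 to 0.62 for Ccl5, -3.93 to 1.62 for Ccr2, -5.99 to 1.65 for Ccr6, -2.61 to 0.35 for Cx3cr1, -6.13 to 1.91 for Cxcl13 and -4.47 to 3.76 for Cxcl5, where values for Ccr6, Cxcl13 and Cxcl5 rest on 0 to a few counts. No paired analysis was possible because the labels give the models no shared replicate numbers, and the numbers used here follow the order of the samples.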
